A study of Homo sapiens with 9 samples.

Results

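The genes of glycolysis described here are 33 enzymes and transporters chosen by name, from the proteins that carry sugar into the cell to the enzymes that pass pyruvate to lactate or to the mitochondrion. All 33 were found among the 21619 genes of the count tables, 1 of them under its older symbol PKM2 (given here as PKM). They were measured in 9 tumours grown in mice from MDA-MB-231 cells, an established line from a triple-negative human breast cancer. In 5 tumours the cancer cells had been mixed 1:1 with mesenchymal stem cells from human bone marrow (with MSC), and in 4 tumours they had been injected alone (without MSC). Both groups carried the same tag, the ribosomal protein L10a joined to EGFP (EGFP-L10a+), both were placed in the mammary fat pad, and both were taken after 3 weeks, each tumour from a different mouse. The strain, sex and age of the mice, the promoter that drives the tag, and whether the tagged line is 1 clone are not stated in the labels. The RNA was pulled down with its ribosomes through the tag (translating ribosome affinity purification, TRAP), so it stands for polysome-bound RNA of the cells that carry the tag and for what was carried over in the lysate of whole tumours. Tumours are called here by the numbers of the labels, 1, 6, 7, 10 and 15 with MSC and 9, 11, 12 and 13 without MSC.

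Glucose enters a cell through carriers of the GLUT family and is trapped by hexokinase as glucose 6-phosphate. Phosphofructokinase commits the sugar to breakdown, and the bifunctional PFKFB enzymes set its pace through fructose 2,6-bisphosphate. The sugar is then split, oxidized and turned into pyruvate, which lactate dehydrogenase reduces to lactate for export by monocarboxylate transporters, or which pyruvate dehydrogenase passes to the mitochondrion unless its kinases switch it off. Many tumours run this pathway fast even in the presence of oxygen, and many of its genes are textbook targets of the hypoxia factor HIF-1 and of MYC.

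The libraries held 29749909 to 50639082 gene counts with MSC and 24616792 to 65275226 without MSC. No pair of libraries of the same group matched within sampling noise, and pairs across the groups were not compared. All 10 genes listed for this line were present, and summed to 11820 to 18030 CPM (counts scaled to a common library size with TMM factors) with MSC and to 11950 to 12880 CPM without MSC. Whether MSC or fibroblasts also express these genes was not tested, so the sum is no measure of purity. Most of the sum was VIM, while EGFR was at 19.2 ± 2.18 CPM with MSC and 10.2 ± 2.82 CPM without MSC, and MSLN at 16.6 ± 3.18 CPM with MSC and 10.4 ± 2.77 CPM without MSC. Of the 10, CD44, KRT8, EGFR, AXL and MSLN were called higher with MSC and S100A4 lower. Of 12 fibroblast and MSC markers the sum was 567 to 769 CPM with MSC and 491 to 634 CPM without MSC, most of it NT5E, at 532 to 675 CPM with MSC and 461 to 602 CPM without MSC, and 4 of the 12 averaged under 0.5 CPM over all tumours. COL1A2 was called higher (edgeR adjusted p = 0.0104), at 1.21 to 8.45 CPM with MSC and 0.528 to 0.699 CPM without MSC. Tumour 15 stood apart, with 21.2 CPM of COL3A1 and 18.9 CPM of DCN, against at most 1.55 CPM and 0.207 CPM in the other 8 tumours. Markers of skeletal muscle were highest in tumours 1 and 6, at 15.3 and 21.6 CPM in sum over 10 genes, against 2.85 to 7.82 CPM in the others. The summed leukocyte markers, mostly CD68, ran from 139.8 to 209 CPM with MSC and from 96.0 to 139.4 CPM without MSC. Among these markers CD68 was called higher with MSC (edgeR adjusted p = 0.0371), while CSF1R, CD14 and LYZ had log2 changes of 0.01 ± 0.28, -0.45 ± 0.67 and -0.82 ± 0.40 and did not pass. PTPRC was at 3.58 CPM in tumour 1 and at most 0.543 CPM in the other 8 tumours. Endothelial markers summed to 42.3 to 56.3 CPM with MSC and 39.7 to 58.8 CPM without MSC, most of it ROBO4. PECAM1 was called lower with MSC, at 4.43 ± 0.946 CPM with MSC and 8.50 ± 1.21 CPM without MSC, with no overlap (log2 change -0.94 ± 0.19, edgeR adjusted p = 0.00745). The sums reached at most 5.57 CPM (tumour 15) for adipocyte markers and at most 1.117 CPM for erythroid markers. The part of these other cells in the results was not tested.

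All 33 genes passed the filter on low counts. Sugar uptake, the first phosphorylation steps and lactate export held most of the genes called higher, but steps were not tested against each other. Of the 33 genes, 9 were higher with MSC at an edgeR adjusted p under 0.05 (Benjamini-Hochberg over 13458 tested genes), against 4.18% of all tested genes. None was called lower, against 3.6% of all tested genes. At an unadjusted p under 0.05, 12 were higher, against 12.8% of all tested genes, and 0 lower, against 11.8%, and 0 were lower with DESeq2 or limma-voom. The count of 9 was 3 without tumour 9, 3 without tumour 12, 5 without tumour 10 and 5 with GC content and length corrected for. Over all tested genes the count of 563 higher was 175, 151 and 285 without tumours 9, 12 and 10, and 330 with that correction. The 5 called with that correction were SLC2A1, SLC2A3, HK2, PFKFB4 and PGK1, and 0 were of phosphofructokinase or lactate export. In either direction 7.78% of all tested genes were called. The 9 were the glucose carriers SLC2A1 and SLC2A3, the hexokinases HK1 and HK2, the phosphofructokinases PFKL and PFKP, the regulator PFKFB4, phosphoglycerate kinase PGK1 and the lactate exporter SLC16A3. A positive log2 change was seen for 27 of the 33 genes, against 51.1% of all tested genes, and the median log2 change of the 33 was 0.22, against 0.01 for all tested genes. In 8 genes every tumour with MSC was above every tumour without MSC, which held for 5.13% of all tested genes, and in 1 gene (PDK3) every tumour with MSC was below, which held for 4.87%. In bulk RNA of this kind, fewer cells of a type and less RNA per cell cannot be told apart, and with no total tumour RNA used here neither can a change in RNA amount and one in ribosome loading. Glycolytic genes are conserved between mouse and human, and the part of mouse reads in these counts was not tested.

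**Figure D1:**
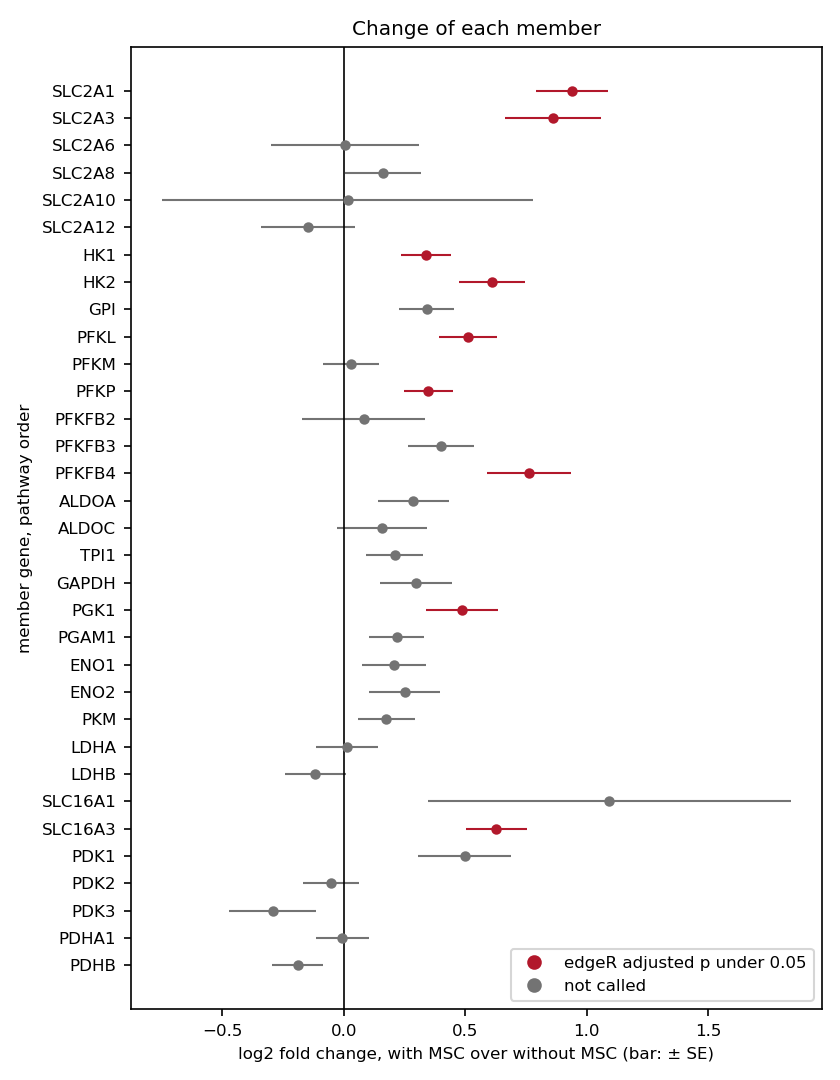
Log2 fold change of each of the 33 genes, with MSC over without MSC, in pathway order from uptake at the top (point, edgeR estimate; bar, ± SE; red, adjusted p under 0.05). The 9 red points run from 0.34 for HK1 to 0.94 for SLC2A1, and 7 of them lie above the aldolase step.

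Promoters bear on these genes because HIF-1 and MYC are known to bind many of them. Windows of 250 bases before each start in RefSeq (build GRCh38.p14) were found for 30 of the 33 genes and searched on both strands for ACGTG, whose reverse form reads CACGT, and for GCGTG, whose reverse form reads CACGC. Both are forms of the core that HIF-1 binds. The palindrome CACGTG, which holds ACGTG and which MYC binds, counts once on each strand. The motif ACGTG was in a window of 18 of the 30 genes (60%), against 21.7% of 27305 genes, and GCGTG in 17 (56.7%), against 36.2%. Among genes with a single window the shares were 8 of 19 (42.1%) against 18.4% for ACGTG, and 9 of 19 (47.4%) against 31.1% for GCGTG. Both motifs hold CG, and the genes compared were not matched for GC content. What base content adds to these shares was not tested. Of single-window genes, 1 of 4 called higher and 7 of 15 not called held ACGTG, while 3 of 4 called higher and 6 of 15 not called held GCGTG. Over any number of windows, either motif was in 7 of 8 genes called higher and in 17 of 22 not called. The share of all genes with either motif was not counted. The 4 called genes with a single window are shown with the first of 2 windows of LDHA, which was not called and was chosen after its matches were seen, to set the letters beside the changes. Capitals mark both motifs and their reverse forms.
SLC2A1, chr1:42958869-42959118, minus strand: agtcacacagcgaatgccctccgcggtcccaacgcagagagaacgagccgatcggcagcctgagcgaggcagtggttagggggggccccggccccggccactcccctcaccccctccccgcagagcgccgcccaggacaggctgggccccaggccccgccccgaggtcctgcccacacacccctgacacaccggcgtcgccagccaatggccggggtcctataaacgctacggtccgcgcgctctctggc
PFKL, chr21:44299803-44300052, plus strand: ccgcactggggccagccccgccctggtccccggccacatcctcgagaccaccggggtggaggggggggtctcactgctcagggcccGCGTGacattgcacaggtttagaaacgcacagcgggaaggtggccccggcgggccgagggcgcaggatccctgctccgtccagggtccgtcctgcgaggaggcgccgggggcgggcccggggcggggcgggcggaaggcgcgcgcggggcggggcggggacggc
PFKFB4, chr3:48556804-48557053, minus strand: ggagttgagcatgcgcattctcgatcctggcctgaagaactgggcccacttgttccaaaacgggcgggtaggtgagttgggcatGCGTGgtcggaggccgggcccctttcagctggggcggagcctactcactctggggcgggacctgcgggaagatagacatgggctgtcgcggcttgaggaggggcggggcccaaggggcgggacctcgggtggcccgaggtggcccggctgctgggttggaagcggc
PGK1, chrX:78103998-78104247, plus strand: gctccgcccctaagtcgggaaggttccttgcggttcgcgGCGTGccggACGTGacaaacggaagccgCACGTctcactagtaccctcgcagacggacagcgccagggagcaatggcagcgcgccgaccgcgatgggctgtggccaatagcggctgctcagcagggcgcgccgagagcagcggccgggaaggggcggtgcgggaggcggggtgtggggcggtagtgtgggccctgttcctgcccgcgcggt
LDHA, chr11:18394313-18394562, plus strand: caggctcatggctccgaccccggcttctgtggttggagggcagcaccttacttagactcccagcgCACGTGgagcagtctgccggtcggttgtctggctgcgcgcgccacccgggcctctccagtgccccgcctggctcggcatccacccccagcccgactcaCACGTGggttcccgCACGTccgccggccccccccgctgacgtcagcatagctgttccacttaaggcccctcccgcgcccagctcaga
The window of SLC2A1, the gene with the largest log2 change of the 9, holds neither motif. That of PGK1 holds GCGTG 211 bases and ACGTG 202 and 183 bases before the start. The LDHA window shown, whose gene had a log2 change of 0.01, holds 5 ACGTG matches, and the other LDHA window holds 0 ACGTG and 1 GCGTG. HK2, called higher and also with 2 windows, is not shown. Its windows hold 2 ACGTG and 1 GCGTG, and 4 ACGTG and 2 GCGTG. HK1, PFKP and SLC16A3, called higher with more than 2 windows, are not shown either, and each has a window with a match. The windows shown are examples, and a link between motifs and changes was not tested. The single windows of PKM, PGAM1 and LDHB, which were not called either, hold neither motif. A match is a description of letters, and no factor's binding was measured.

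SLC2A1 encodes GLUT1, the basal glucose carrier of most tissues and tumours. Its level was 201, 175, 200.1, 285 and 196 CPM in tumours 1, 6, 7, 10 and 15 with MSC, against 103, 99.1, 92.6 and 146 CPM in tumours 9, 11, 12 and 13 without MSC. Tumour 10 was far above the rest of its group and tumour 13 above the rest of its own, and the groups did not overlap. The mean was 212 ± 42.5 CPM with MSC and 110.3 ± 24.3 CPM without MSC (SD, n = 5 and 4), a log2 change of 0.94 ± 0.15 (SE, edgeR adjusted p = 0.00183). The call held in each of the 9 fits that left out 1 tumour and under each of 8 other settings.

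SLC2A3 encodes GLUT3, the high-affinity carrier best known from neurons. It was at 51.1, 55.2, 71.4, 79.5 and 50.5 CPM in tumours 1, 6, 7, 10 and 15 with MSC, and at 35.2, 32.99, 20.3 and 46.6 CPM in tumours 9, 11, 12 and 13 without MSC. The groups did not overlap, though tumour 13 came close to tumours 1 and 15. The log2 change was 0.86 ± 0.20 (edgeR adjusted p = 0.0197), and the adjusted p was 0.0606 without tumour 9 and 0.0582 without tumour 11. SLC2A14 is a near-identical copy of SLC2A3, so reads that fit both could not be placed.

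The other 4 sugar carriers did not pass. SLC2A8, an intracellular glucose carrier, was at 7.40 to 8.91 CPM with MSC and 6.54 to 8.15 CPM without MSC. SLC2A12 was at 4.06 to 5.85 CPM with MSC and 4.54 to 6.07 CPM without MSC (log2 change -0.15 ± 0.19). SLC2A6 had a log2 change of 0.00 ± 0.30, with tumours without MSC spread from 2.20 to 9.72 CPM, and SLC2A10 had 0 to 21 counts in any tumour. Per kilobase of exon, SLC2A1 made up 69.7 ± 2.21% of the summed level of the 6 sugar carriers with MSC and 63.9 ± 1.70% without MSC, and the groups did not overlap.

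Hexokinase traps glucose inside the cell. HK2, the inducible form, was at 79.6, 84.1, 96.6, 123 and 81.3 CPM in tumours 1, 6, 7, 10 and 15 with MSC, against 66.7, 56.4, 50.3 and 70.02 CPM in tumours 9, 11, 12 and 13 without MSC. All tumours with MSC were above all without, tumour 10 the most. The log2 change was 0.61 ± 0.13 (edgeR adjusted p = 0.0115), and the adjusted p was 0.0558 without tumour 12.

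HK1, the form found in most tissues, was at 131, 128, 135, 151 and 128 CPM in tumours 1, 6, 7, 10 and 15 with MSC, against 94.6, 122, 100.8 and 108 CPM in tumours 9, 11, 12 and 13 without MSC. The groups did not overlap, but tumour 11 came close to tumours 6 and 15. The log2 change was 0.34 ± 0.10 (edgeR adjusted p = 0.0474). This call was lost without any 1 of tumours 1, 6, 7, 10, 15, 9 or 12 (adjusted p 0.0600 to 0.167) and in 6 of 8 other settings. GPI, which turns glucose 6-phosphate into fructose 6-phosphate, had a log2 change of the same size, 0.34 ± 0.11, and missed the threshold (edgeR adjusted p = 0.0680). GPI was at 236, 261, 230.2, 297 and 197 CPM in tumours 1, 6, 7, 10 and 15 with MSC and at 177 to 201 CPM without MSC, so that only tumour 15 lay within the range of the other group. Without tumour 15 its adjusted p was 0.0314, and with GC content and length corrected for its log2 change was 0.13 (adjusted p 0.579).

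Phosphofructokinase works as a tetramer of liver (PFKL), muscle (PFKM) and platelet (PFKP) subunits. PFKL was at 50.2, 45.1, 49.0, 58.9 and 45.7 CPM in tumours 1, 6, 7, 10 and 15 with MSC, against 30.0, 40.0, 32.8 and 37.1 CPM in tumours 9, 11, 12 and 13 without MSC (log2 change 0.51 ± 0.12, edgeR adjusted p = 0.0150). PFKP was at 131, 127, 139, 152 and 119 CPM in tumours 1, 6, 7, 10 and 15 with MSC, against 101, 105, 103 and 110.2 CPM in tumours 9, 11, 12 and 13 without MSC (log2 change 0.35 ± 0.10, edgeR adjusted p = 0.0376). Neither gene's groups overlapped, and tumour 10 was the highest for both. PFKM, at 28.1 to 34.8 CPM with MSC and 28.7 to 33.5 CPM without MSC, had a log2 change of 0.03 ± 0.11. PFKL lost its call without tumour 9, 10 or 12 (adjusted p 0.0581, 0.0522 and 0.0599) and had a log2 change of 0.26 (adjusted p 0.162) with GC content and length corrected for. PFKP was lost without any 1 of tumours 1, 6, 7, 10, 9, 11 or 12 (adjusted p 0.0591 to 0.124), and its log2 change was 0.16 with that correction. Per kilobase of exon, the platelet subunit made up 60.1 ± 0.48% of the 3 with MSC and 60.3 ± 1.59% without MSC. The liver subunit made up 28.6 ± 1.08% with MSC and 25.6 ± 2.15% without MSC, and the groups overlapped. The muscle subunit made up 11.3 ± 0.68% with MSC and 14.1 ± 1.385% without MSC, and the groups did not overlap. These shares were not tested.

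The PFKFB enzymes make and remove fructose 2,6-bisphosphate. PFKFB4 was at 29.3, 32.9, 44.7, 63.0 and 46.7 CPM in tumours 1, 6, 7, 10 and 15 with MSC, against 25.4, 28.4, 22.5 and 25.9 CPM in tumours 9, 11, 12 and 13 without MSC. Tumour 1 was only just above tumour 11, and tumour 10 was the highest. The log2 change was 0.76 ± 0.17 (edgeR adjusted p = 0.0143), with an adjusted p of 0.0553 without tumour 9 and 0.0636 without tumour 12. PFKFB3, whose kinase activity far exceeds its phosphatase activity, was at 122 to 168 CPM with MSC and 75.7 to 129 CPM without MSC (log2 change 0.40 ± 0.14, edgeR adjusted p = 0.0716). It passed without tumour 13 (adjusted p 0.0188) and with DESeq2. Its log2 change was 0.27 without tumour 12 (adjusted p 0.280) and 0.18 with GC content and length corrected for (adjusted p 0.409). PFKFB2, known from the heart, had a log2 change of 0.08 ± 0.25.

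**Figure D2:**
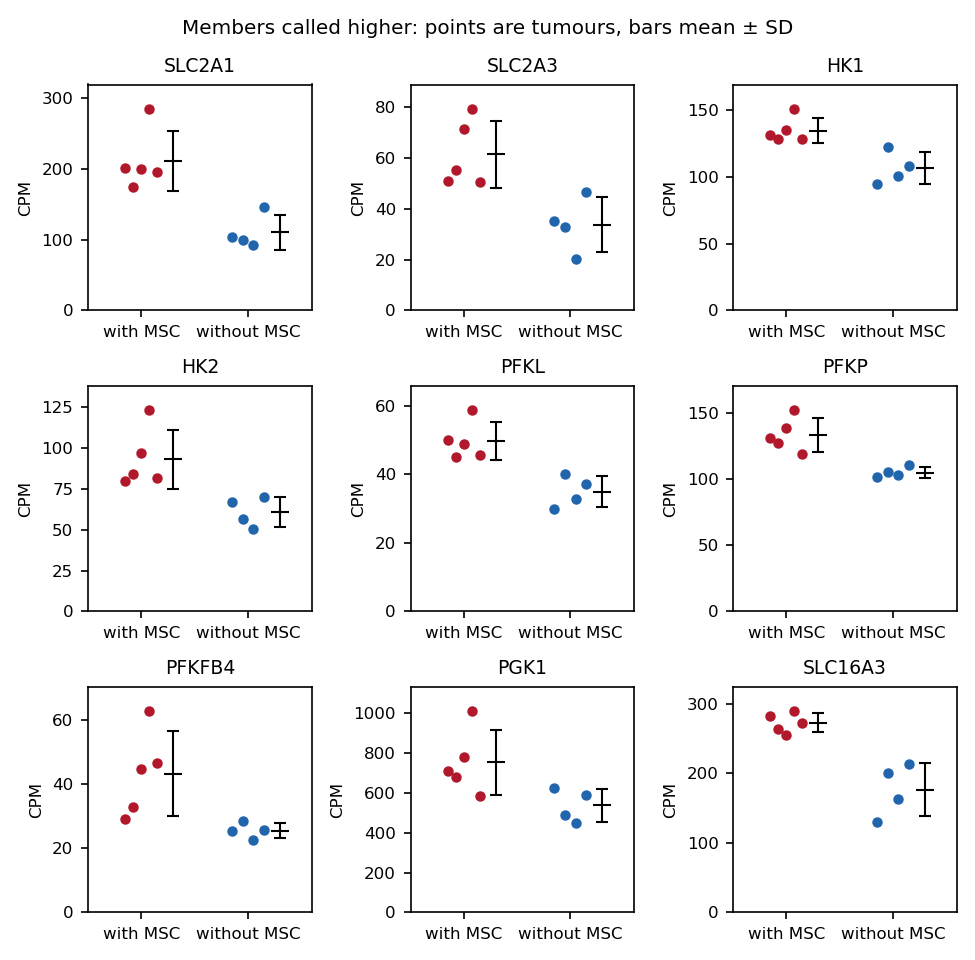
CPM of the 9 genes called higher in each tumour (points; with MSC red, without MSC blue; bars, mean ± SD, n = 5 and 4; axes start at 0). The groups are apart in every panel but PGK1, and tumour 10 is the highest point in all 9 panels.

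The steps from aldolase to pyruvate hold the most abundant genes, and 1 of the 9 enzymes passed. PGK1, which makes ATP from 1,3-bisphosphoglycerate, was at 708, 677, 780.1, 1011 and 582 CPM in tumours 1, 6, 7, 10 and 15 with MSC, against 625, 486, 447 and 588 CPM in tumours 9, 11, 12 and 13 without MSC. Its groups overlapped, since tumour 15 was below tumours 9 and 13. The log2 change was 0.49 ± 0.15 (edgeR adjusted p = 0.0455), and the call was lost without any 1 of tumours 1, 6, 7, 10, 9, 11 or 12 (adjusted p 0.0583 to 0.181).

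The other 8 enzymes of these steps had small positive log2 changes, 0.16 to 0.30, and did not pass. GAPDH, which oxidizes the triose phosphate, was at 4535, 4875, 4678, 5852 and 3600.0 CPM in tumours 1, 6, 7, 10 and 15 with MSC, against 3409, 4562, 3464 and 3882 CPM in tumours 9, 11, 12 and 13 without MSC (log2 change 0.30 ± 0.15, edgeR adjusted p = 0.219). Tumours 10 and 15 with MSC lay on opposite sides of tumour 11 without MSC. ALDOA had a log2 change of 0.29 ± 0.15, TPI1 of 0.21 ± 0.12, PGAM1 of 0.22 ± 0.11 and ENO1 of 0.21 ± 0.13. PKM, which makes pyruvate, had 0.17 ± 0.12 (edgeR adjusted p = 0.376). The neuronal forms ALDOC and ENO2 had 0.16 ± 0.19 and 0.25 ± 0.15. In these genes tumour 15 was the lowest or near the lowest of its group, as for TPI1, at 839.5 CPM against 1032 to 1068 CPM in the other 4 with MSC. Several of these genes have many processed pseudogenes (62 named for GAPDH and 13 for PGAM1 in GENCODE 29), and reads that matched more than 1 place were given to no gene. Such reads were 2.78 to 3.00% of a library with MSC and 2.62 to 2.74% without MSC, with no overlap. The effect of this on the changes was not tested.

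For lactate dehydrogenase 0 of 2 genes passed in edgeR, at an unadjusted p under 0.05, in DESeq2 or in limma-voom. LDHA, which favours lactate and whose printed promoter window holds 2 CACGTG palindromes, was at 1912, 1838, 2030.0, 2226 and 1478 CPM in tumours 1, 6, 7, 10 and 15 with MSC, against 2003, 1888, 1872 and 1749 CPM in tumours 9, 11, 12 and 13 without MSC (log2 change 0.01 ± 0.13, edgeR adjusted p = 0.962). Tumours 10 and 15 were the highest and the lowest of all 9, and the other 7 lay between. LDHB, which favours pyruvate, was at 440 to 671 CPM with MSC and 525 to 677 CPM without MSC (log2 change -0.12 ± 0.13).

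SLC16A3 encodes MCT4, the exporter of lactate in strongly glycolytic cells. It was at 282, 264, 256, 290.1 and 272 CPM in tumours 1, 6, 7, 10 and 15 with MSC, against 130, 200.1, 163 and 214 CPM in tumours 9, 11, 12 and 13 without MSC. The 5 tumours with MSC were close together, and all were above the 4 without, which were spread more widely. The log2 change was 0.63 ± 0.13 (edgeR adjusted p = 0.00688). It held without each tumour in turn, and with GC content and length corrected for it was 0.31 (adjusted p 0.0745). SLC16A1, the other carrier (MCT1), had only 0 to 24 counts in a tumour. Its log2 change of 1.09 ± 0.75 was the largest of the 33 but did not pass (edgeR adjusted p = 0.386), and such low counts cannot settle whether it differed. BSG encodes basigin, the partner that brings MCT4 to the cell surface. It was at 419.7, 406, 396, 364 and 398 CPM in tumours 1, 6, 7, 10 and 15 with MSC, against 208, 224, 197 and 355 CPM in tumours 9, 11, 12 and 13 without MSC (log2 change 0.69 ± 0.14, edgeR adjusted p = 0.00768). Tumour 13 came close to tumour 10, and the call held in all 9 fits that left out 1 tumour and in 8 other settings.

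At the entry of pyruvate into the mitochondrion, 0 of 3 kinases and 0 of 2 E1 subunits passed in edgeR, DESeq2 or limma-voom, with 1 kinase, PDK1, at an unadjusted p under 0.05. PDK1, the kinase raised under low oxygen in textbooks, was at 15.1 to 25.6 CPM with MSC and 9.46 to 17.9 CPM without MSC (log2 change 0.50 ± 0.19, edgeR adjusted p = 0.112). PDK2 had a log2 change of -0.05 ± 0.12. PDK3 was at 4.30, 5.95, 6.59, 6.53 and 6.60 CPM in tumours 1, 6, 7, 10 and 15 with MSC, against 8.45, 6.77, 6.78 and 7.30 CPM in tumours 9, 11, 12 and 13 without MSC. The groups did not overlap, tumour 1 was the lowest, and the log2 change of -0.29 ± 0.18 did not pass (edgeR adjusted p = 0.327). The E1 subunits PDHA1 and PDHB had log2 changes of -0.01 ± 0.11 and -0.19 ± 0.11. Of 10 other tested genes of pyruvate dehydrogenase and mitochondrial pyruvate entry, 0 passed in edgeR. At an unadjusted p under 0.05, 1 was higher and 2 lower, against 12.8% and 11.8% of all tested genes. DESeq2 called 1 lower and limma-voom 0, and the median log2 change of these genes was -0.15. The DLAT core subunit and the pyruvate carrier MPC2 were the lowest of these, at -0.31 ± 0.11 and -0.29 ± 0.11.

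Single tumours stood out across many of these genes. Of the 31 genes above 1 CPM on average, tumour 10 was the highest of all 9 tumours for 21. Tumour 15 was the lowest of its group for 13, and tumour 12 the lowest of all 9 for 10. The 33 genes took 1.52, 1.55, 1.63, 1.85 and 1.49% of gene counts in tumours 1, 6, 7, 10 and 15 with MSC, against 1.32, 1.495, 1.28 and 1.397% in tumours 9, 11, 12 and 13 without MSC. The groups overlapped narrowly, since tumour 15 was just below tumour 11.

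**Figure D3:**
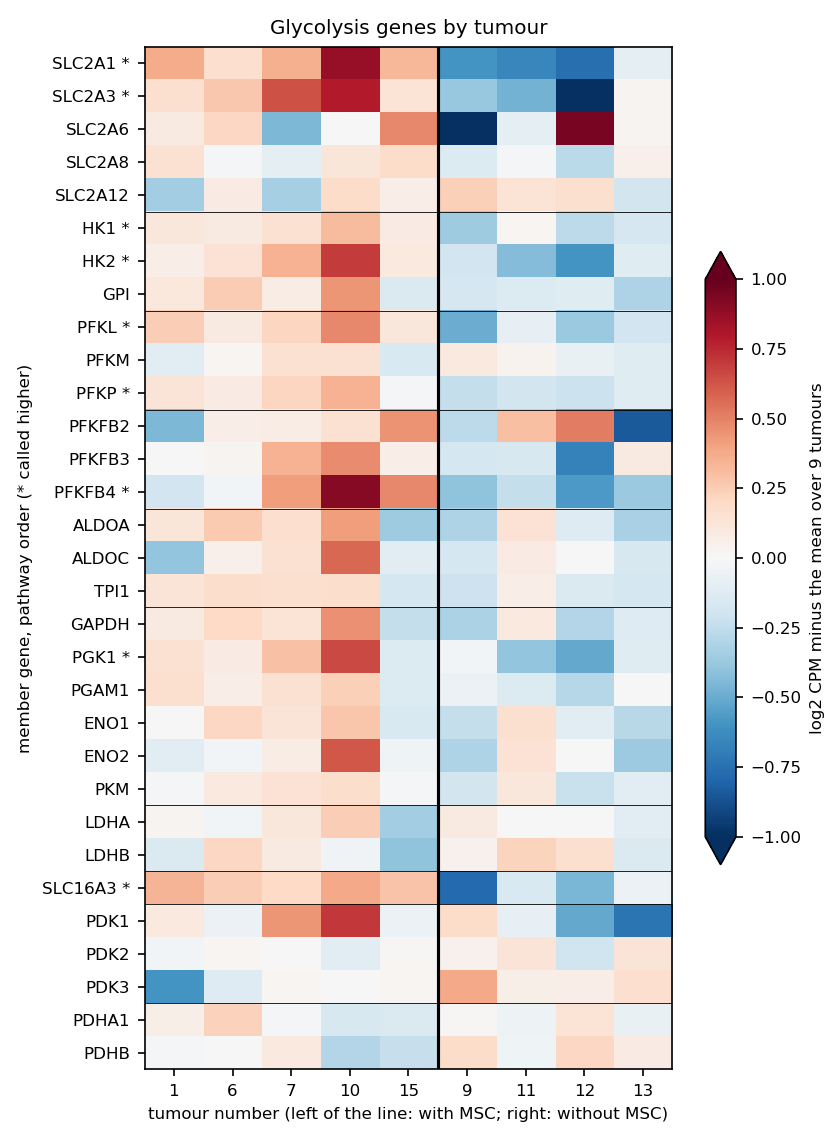
Log2 CPM of each gene above 1 CPM in each tumour minus the mean of the 9 tumours, in pathway order (columns, tumours; with MSC left of the line, without MSC right; asterisk, called higher). Tumour 10 has the strongest red column, while tumour 15 is mostly blue from aldolase to lactate dehydrogenase.

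Levels per kilobase of exon, which allow a rough comparison of genes, spanned a wide range along the pathway. The length took all exons of a gene together, not the transcript in use, so the order of genes is approximate. GAPDH led, at 2117 ± 362 CPM per kilobase with MSC and 1722 ± 239 without MSC. ENO1 came next at 861 ± 99.9 with MSC and 745 ± 108 without MSC, followed by LDHA at 639 ± 93.1 with MSC and 633 ± 35.0 without MSC. ALDOA, TPI1, PKM, PGAM1 and LDHB followed at 356 to 469 with MSC and 364 to 403.7 without MSC. Neighbours in the order within this set did not differ beyond their spread. SLC2A1 was at 53.1 ± 10.7 with MSC and 27.7 ± 6.10 without MSC, and SLC16A3 at 52.7 ± 2.66 with MSC and 34.1 ± 7.34 without MSC. The lowest were SLC16A1 at 0.0887 ± 0.0333 with MSC and 0.0395 ± 0.0314 without MSC, and SLC2A10. Single forms dominated some steps in both groups: ALDOA made up 99.1% of its step with MSC and 99.0% without MSC, and ENO1 97.5% with MSC and 97.6% without MSC.

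**Figure D4:**
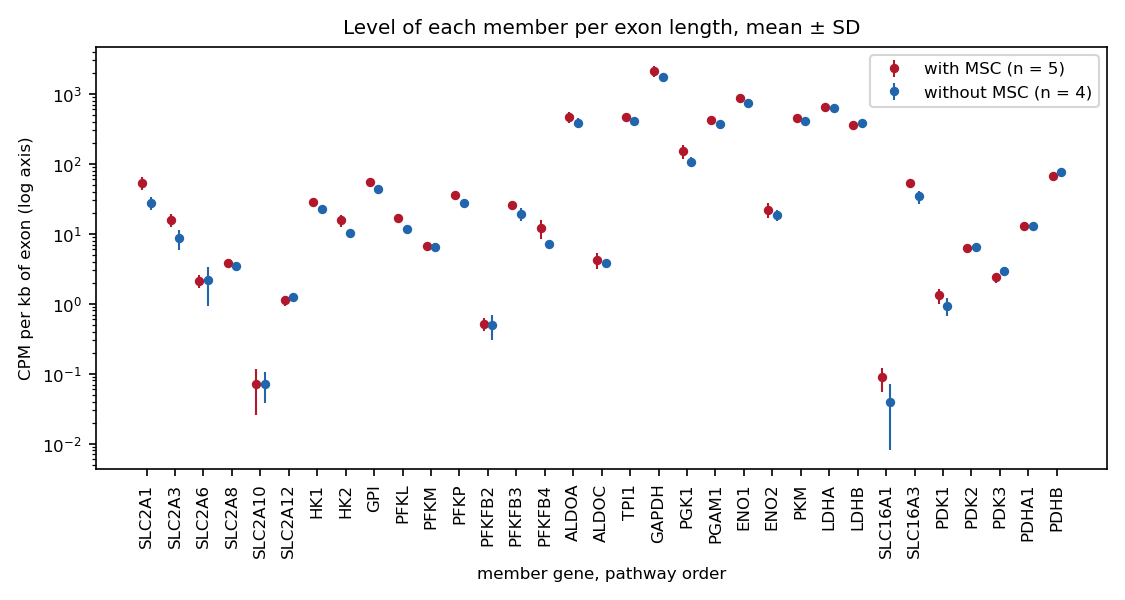
Mean CPM per kilobase of exon ± SD for each of the 33 genes, in pathway order, on a log axis (red, with MSC, n = 5; blue, without MSC, n = 4). The lower steps from ALDOA to LDHB hold the highest points, and SLC2A10 and SLC16A1 the lowest.

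Ratios within a tumour, which do not depend on library size, were compared for 10 pairs of genes of the same step by exact two-sided permutation, for which the smallest p with 5 against 4 tumours is 0.0159. None of the 10 ratios passed, and all overlapped between the groups. After adjustment over the 10 pairs, a single pair could not pass 0.05 even with its groups fully apart. That none passed therefore does not show that the ratios stayed the same. The smallest p was 0.0635 for PFKP over PFKL, whose log2 ratio was 1.42 ± 0.07 with MSC and 1.59 ± 0.15 without MSC (difference -0.17, adjusted p 0.397 over the 10 pairs). Next was PDK1 over PDK2, at -0.38 ± 0.38 with MSC and -0.94 ± 0.42 without MSC (difference 0.56, exact p = 0.0794, adjusted p 0.397). HK2 over HK1 was at -0.55 ± 0.17 with MSC and -0.81 ± 0.29 without MSC (difference 0.26, exact p = 0.175). LDHA over LDHB was at 1.75 ± 0.19 with MSC and 1.62 ± 0.14 without MSC (difference 0.13, exact p = 0.349).

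Genes that branch from or control the pathway were counted in lists. Of 118 such genes 88 were tested, and their median log2 change was 0.04. In edgeR 9 of the 88 were higher and 4 lower with MSC, against 4.18% higher and 3.6% lower of all tested genes. Of the tested genes of 2 lists, 0 passed in edgeR: of 5 other sugar carriers 2 were higher at an unadjusted p under 0.05, and of 15 glycogen genes 2 were higher and 2 lower. At that unadjusted threshold 12.8% of all tested genes were higher and 11.8% lower. DESeq2 called 1 carrier higher and 1 glycogen gene in each direction, and limma-voom called 0 in both lists. SLC2A13, a carrier of inositol, had the smallest p among the carriers (log2 change 0.97 ± 0.32, edgeR adjusted p = 0.0624). Besides BSG, the higher ones included MYC, a driver of glycolytic genes, at 160.0 to 213 CPM with MSC and 121 to 136 CPM without MSC (log2 change 0.47 ± 0.11, edgeR adjusted p = 0.0132). With GC content and length corrected for, MYC had a log2 change of 0.29 (adjusted p 0.102). TXNIP and ARRDC4, related proteins that restrain glucose uptake and are induced by sugar, had log2 changes of 0.43 ± 0.11 and 0.82 ± 0.25, and MLXIP, a sugar-sensing factor that drives both, had 0.63 ± 0.17, or 0.37 (adjusted p 0.104) with that correction. The edgeR adjusted p was 0.0264 for TXNIP and 0.0499 for ARRDC4, whose groups overlapped. TXNIP lost its call in 5 and ARRDC4 in 6 of the 9 fits that left out 1 tumour. Of 4 tested gluconeogenesis genes PCK2 and G6PC3 both rose by 0.55 on the log2 scale, and FBP1, which reverses the phosphofructokinase step, had a log2 change of -0.39 ± 0.14 and did not pass (edgeR adjusted p = 0.0790). PCK2 lost its call in 6 of the 9 fits that left out 1 tumour, and with GC content and length corrected for (0.36, adjusted p 0.116). PGAM4, a retrogene close in sequence to PGAM1, rose by 0.98 ± 0.29 (edgeR adjusted p = 0.0499), and reads of PGAM1 could be counted in it. Its groups overlapped, and its call was lost in 7 of the 9 fits that left out 1 tumour.

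The 4 lower genes were GALM, GFPT2, PRPS2 and HIF1A. GALM, which interconverts the ring forms of sugars, was at 16.9, 20.3, 21.6, 18.0 and 18.7 CPM in tumours 1, 6, 7, 10 and 15 with MSC, against 28.2, 32.1, 41.1 and 23.5 CPM in tumours 9, 11, 12 and 13 without MSC (log2 change -0.71 ± 0.14, edgeR adjusted p = 0.00746). GFPT2, of the hexosamine branch, fell by 0.81 ± 0.17 and PRPS2, which makes phosphoribosyl pyrophosphate, fell by 0.37 ± 0.11. HIF1A, the oxygen-regulated subunit of HIF-1, which is controlled mainly as a protein, was at 87.9, 90.5, 89.3, 85.4 and 98.8 CPM in tumours 1, 6, 7, 10 and 15 with MSC, against 141, 114, 106 and 101.5 CPM in tumours 9, 11, 12 and 13 without MSC. It fell by 0.36 ± 0.11 on the log2 scale (edgeR adjusted p = 0.0454), and this call was lost without any 1 of tumours 1, 6, 7, 10, 9, 11 or 12 (adjusted p 0.0738 to 0.164). Of these 13 genes, BSG, GALM and GFPT2 kept their calls in all 9 fits that left out 1 tumour. The others lost theirs in 1 to 8 of the 9.

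**Figure D5:**
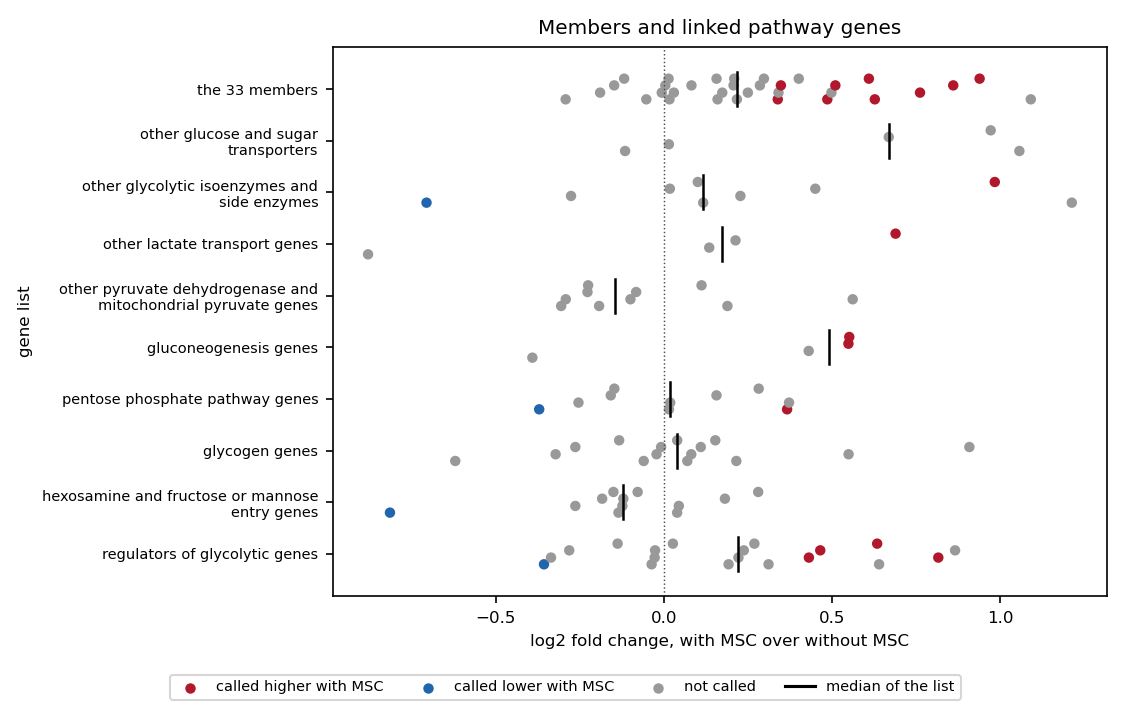
Log2 change of the 33 genes and of the tested genes of 9 other lists (points; red, higher with MSC; blue, lower with MSC; grey, not called; black bar, median of the list). The median was 0.22 for the 33 genes, -0.15 for other pyruvate dehydrogenase and mitochondrial pyruvate genes and 0.04 for glycogen genes.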

How the data were processed

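For each of 9 tumours the authors deposited raw read counts by gene symbol, made with CASAVA 1.8.1, TopHat 1.4.0, HTSeq and the build hg19, per the submitters' processing notes. The annotation, the HTSeq settings, the use of strand and any removal of mouse reads are not given in the sources used, so counts of overlapping and near-identical genes are uncertain, and reads of the mouse host may be included in conserved genes, the 33 among them. Lines for reads given to no gene (10.2 to 12.1% of a library) were left out. The main test was edgeR 4.0.16 (R 4.3.3; filterByExpr, TMM, glmQLFit with robust=TRUE, Benjamini-Hochberg over 13458 genes, threshold 0.05). SE is the size of the log2 change divided by the square root of F. The test was tried on simulated data. Exon lengths and GC content came from GENCODE 29, for 95.99% of tested genes, and promoters from RefSeq. Exon length took all exons of a gene together, so levels and shares per kilobase are approximate. Permutation tests used a pseudocount of 0.5 counts and SciPy 1.17.1. Figures were drawn with matplotlib 3.10.9.

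The 33 genes, the other lists and the alternatives were chosen with earlier results of these data known. Values per tumour are given for called genes and those of pairs described, other listed genes are named when called, with at most 3 more per list by smallest p. One gene that this rule takes is not reported here. LDHA, GAPDH, GPI and PDK3 were also given per tumour after their values were seen. Alternatives were library size only, size factors of DESeq2, no filter, at least 5 CPM in 4 libraries, DESeq2 1.42.0, limma-voom (limma 3.58.1), offsets for GC content and length (splines with 4 degrees of freedom), leaving out each tumour, and leaving out tumours 15 and 12 together.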

Additional observations from a re-analysis of the deposited data

Results flagged for a closer look

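In 4 of 66 groups of values (33 genes in both groups) 1 tumour lay far from the rest of its group by Dixon's criterion, which chance meets in about 1 group in 20. SLC2A1 was at 285 CPM in tumour 10, against 175 to 201 CPM in the other 4 tumours with MSC. ENO2 was at 98.1 CPM in tumour 10, against 59.3 to 67.1 CPM in the other 4 with MSC. TPI1 was at 839.5 CPM in tumour 15, against 1032 to 1068 CPM in the other 4 with MSC. PDK3 was at 4.30 CPM in tumour 1, against 5.95 to 6.60 CPM in the other 4 with MSC.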

How the results depend on the processing

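No paired analysis was possible because the groups share no replicate numbers. The count of the 33 genes called higher was 9, and it was 5 with GC content and length offsets, 4 without tumours 15 and 12 together, and 3 to 10 when 1 tumour was left out (3 without tumour 9 or 12, 5 without tumour 10); 0 were called lower in each setting. Over all tested genes the count of higher calls was 859 with DESeq2, 330 with GC offsets, 201 without tumours 15 and 12, and 151 to 985 without 1 tumour, and of lower calls 778 with DESeq2, 289 with limma-voom, 101 without tumours 15 and 12, and 94 to 863 without 1 tumour. Differences on the log2 scale that turned sign were called in no setting. SLC2A6 was at -0.0030 with DESeq2 size factors, -0.012 with DESeq2 and -0.29 with GC offsets, and -0.27 to 0.43 without 1 tumour. SLC2A10 was at -0.43 with limma-voom and -0.20 with GC offsets, and -0.27 to 0.34 without 1 tumour. With GC offsets SLC2A8 was at -0.043, PFKM at -0.052, PFKFB2 at -0.0058, the ratio ENO2/ENO1 at -0.074 and SLC2A1/SLC2A3 at -0.15. Without tumours 15 and 12, PDHA1 was at 0.070 (0.0068 with limma-voom) and SLC16A3/SLC16A1 at 0.039. Without 1 tumour the ranges were -0.0060 to 0.071 for PFKM, -0.12 to 0.28 for PFKFB2, -0.048 to 0.089 for LDHA, -0.071 to 0.036 for PDHA1, -0.057 to 0.089 for ENO2/ENO1, -0.060 to 0.65 for PFKFB3/PFKFB2 and -0.020 to 0.19 for SLC2A1/SLC2A3. The cause was not tested, and 0 to 24 counts limit SLC2A10 and SLC16A1.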
